A study of Mus musculus with 4 samples.

Results

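The genes described here are 10 imprinted growth control genes, Peg3, Cdkn1c, Dlk1, H19, Mest, Plagl1, Grb10, Ndn, Meg3 and Sgce, measured in whole inguinal mammary glands at postnatal day 10. Glands of global knockout Mt1-mmp(-/-) mice (2 arrays) were compared with glands of wild-type Mt1-mmp(+/+) littermates (2 arrays), all on an outbred Swiss Black background. Mt1-mmp is listed on the array as Mmp14 and encodes a collagen-degrading protease of the cell membrane. The knockout removes the gene from every tissue, and the gland was homogenised whole, so fewer cells of a type and less RNA per cell cannot be told apart. Every probe set annotated to exactly 1 of the 10 genes was taken, and the brightest of each gene leads. This gave 22 probe sets for 8 of the 10 genes, out of 28898 single-gene probe sets for 17097 genes. H19, a growth-limiting long non-coding RNA, had no single-gene probe set. Mest encodes a hydrolase-like protein linked to fat cell size in mice, and the probe set listed for it is also listed for Copg2. Neither H19 nor Mest therefore has a value of its own below, and the shared probe set is given at the end.

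An imprinted gene is transcribed from the copy of a single parent. In mice many imprinted genes that control growth are high in fetal organs and decline together after birth, when growth slows, and Plagl1, a zinc finger transcription factor, is known as a regulator of several of them. Paternally expressed members often promote growth and maternally expressed ones such as Cdkn1c, Grb10 and H19 often restrain it, although Ndn is an exception. The array sums both parental copies, so imprinting itself was not measured. The question was whether these genes stand higher together in the Mt1-mmp(-/-) gland.

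Promoter sequence is shown for Peg3, which had the largest difference of the 8 genes with a probe set of their own. Sequences are also shown for Meg3, the non-coding gene that differed between the knockout arrays, and Ndn, which was lower in both. Each is the 250 bases before the annotated start in RefSeq, build GRCm38.p6, written 5′ to 3′ on the gene's strand. Capitals mark GGGGCCCC, the palindrome bound by the Plagl1 protein in mice, and TGACGTCA, the cAMP response element. Both motifs read the same on either strand, and they were chosen after the sequences and values were seen.
Peg3, chr7:6730420-6730669, minus strand: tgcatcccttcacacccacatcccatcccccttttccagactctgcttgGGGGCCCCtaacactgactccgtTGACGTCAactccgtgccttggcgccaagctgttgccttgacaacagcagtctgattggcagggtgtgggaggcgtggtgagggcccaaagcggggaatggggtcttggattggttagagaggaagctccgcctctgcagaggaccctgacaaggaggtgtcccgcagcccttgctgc
Meg3, chr12:109540746-109540995, plus strand: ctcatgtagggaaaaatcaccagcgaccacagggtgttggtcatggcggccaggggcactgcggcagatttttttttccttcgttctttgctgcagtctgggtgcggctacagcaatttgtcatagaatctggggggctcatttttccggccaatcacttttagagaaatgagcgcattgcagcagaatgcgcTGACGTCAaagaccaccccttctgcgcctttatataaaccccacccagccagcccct
Ndn, chr7:62348027-62348276, plus strand: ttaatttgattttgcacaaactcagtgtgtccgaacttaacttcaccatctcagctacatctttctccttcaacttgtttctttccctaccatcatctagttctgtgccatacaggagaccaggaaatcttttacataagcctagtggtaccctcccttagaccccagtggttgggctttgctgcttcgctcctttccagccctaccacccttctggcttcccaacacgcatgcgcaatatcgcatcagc
The Peg3 window held GGGGCCCC at 201 to 194 bases before the start and TGACGTCA at 178 to 171 bases before it. Meg3 held TGACGTCA at 57 to 50 bases before its start. The Ndn window held neither. Over all 32851 windows in the RefSeq table, 0.889% held GGGGCCCC and 1.55% held TGACGTCA. The 7 members with a window (Mest, Peg3, Ndn, Plagl1, Grb10, Dlk1 and Meg3) had 11 windows, of which 1 held GGGGCCCC and 2 held TGACGTCA. A match is a run of letters, and binding was not measured.

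Mmp14, the targeted gene, had values of 5.83 and 5.68 in Mt1-mmp(-/-) glands, against 8.92 and 8.73 in Mt1-mmp(+/+) glands, on the log2 scale of the deposited values. Array medians lay between 4.92 and 4.98. The tissue carried markers of epithelium and fat, among others. The brightness limit was 4.94, the median over all probe sets, and 11078 of 17097 genes averaged at or above it. At or above it were 13 of 15 luminal epithelial and 10 of 11 white adipocyte markers. So were 11 of 11 blood endothelium and 19 of 20 skeletal muscle markers. The luminal markers below it were the hormone receptors Esr1 and Pgr. The knockout arrays stood apart from each other, by a median of 0.214 per gene, against 0.0785 between the wild-type arrays. Replicate 2 of Mt1-mmp(-/-) held skeletal muscle RNA: the summed unlogged level of 20 muscle markers was 662 and 53832 in the knockout arrays and 661 and 3432 in the wild-type arrays. Replicate 1 of Mt1-mmp(-/-) held skin RNA, with a summed level of 19 epidermis and hair follicle markers of 14585 and 839.5 in the knockout arrays and 1207 and 3981 in the wild-type arrays. The genotypes were compared with limma across the 11078 genes at or above the limit, with Benjamini-Hochberg adjustment over all of them. No gene passed an adjusted p of 0.05 (smallest 0.0738), while an unadjusted p under 0.05 was reached by 9.69% of genes in the higher and 12.1% in the lower direction.

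The imprinted genes differed in both directions. All 8 were bright enough to be tested, and 0 were called higher (0% of all tested genes) and 0 lower (0%) by limma at an adjusted p of 0.05. Peg3 and Cdkn1c lay higher in both knockout arrays, Ndn and Sgce lay lower in both (Sgce overlapped after cyclic loess scaling), and Dlk1, Plagl1, Grb10 and Meg3 overlapped between genotypes. Higher in both arrays were thus 2 of 8 genes, where 26.3% of all tested genes were, and lower in both were 2 of 8, where 32.5% were, so neither share stands far from the background. An unadjusted limma p under 0.05 was reached by 2 of 8 in the higher direction and by 0 in the lower. The median difference over the 8 genes was -0.01 (-0.02 in knockout replicate 1 and 0.05 in knockout replicate 2), beside a median of -0.02 over all tested genes. Because 2 arrays against 2 allow no exact permutation p under 0.333, single genes were judged by limma and by whether the groups overlap.

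**Figure D1:**
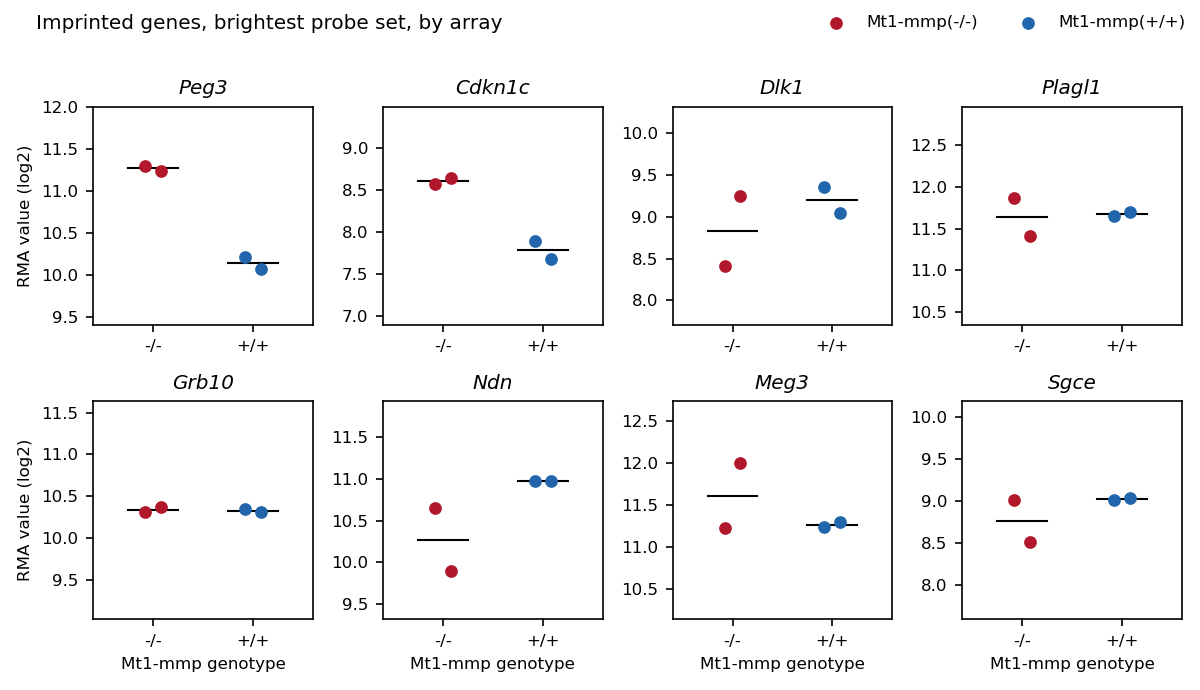
Log2 values of the brightest probe set of the 8 imprinted genes in each array (points; red, Mt1-mmp(-/-); blue, Mt1-mmp(+/+)) with the mean of each genotype (line); every panel spans the same range of log2 units. Peg3 and Cdkn1c sit higher in both Mt1-mmp(-/-) arrays, Ndn lower in both, and Dlk1 and Meg3 differ between the Mt1-mmp(-/-) arrays.

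Among the transcription factors, Peg3, which encodes a zinc finger protein implicated in cell death and in fetal and maternal growth, showed the largest difference. Its brighter probe set read 11.30 and 11.24 in Mt1-mmp(-/-) glands, against 10.21 and 10.08 in Mt1-mmp(+/+) glands. The groups were separated by far more than the gap within either genotype. The log2 difference was 1.13 ± 0.10 (SE, n = 2 per group), or 2.18-fold, with limma adjusted p = 0.101, which did not pass, and 3.18% of tested genes differed by at least as much. The second Peg3 probe set read 8.06 and 7.48 in knockout arrays and 6.72 and 6.44 in wild-type arrays, a difference of 1.19 ± 0.24 in the fit over all probe sets (adjusted p = 0.163). Both probe sets of Peg3 therefore lay higher in both knockout arrays. Plagl1 itself did not separate the genotypes: its brighter probe set read 11.86 and 11.42 in Mt1-mmp(-/-) glands and 11.65 and 11.69 in Mt1-mmp(+/+) glands, a difference of -0.03 ± 0.18 (limma adjusted p = 0.928). The knockout values lay on either side of the wild-type pair. The sign of this small difference turned to 0.06 after cyclic loess and 0.07 after quantile normalisation.

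Cdkn1c was the other gene higher in both knockout arrays. It encodes the cyclin-dependent kinase inhibitor p57Kip2, which holds cells out of the cycle. Its single probe set read 8.57 and 8.64 in Mt1-mmp(-/-) glands, against 7.88 and 7.67 in Mt1-mmp(+/+) glands. The lowest knockout value stood well above the highest wild-type value, and the difference was 0.82 ± 0.12 (SE, n = 2 per group), or 1.77-fold, with limma adjusted p = 0.107, which did not pass. The related inhibitors lay in the same direction. Cdkn1b, which encodes p27Kip1, read 8.52 and 8.56 in knockout arrays and 7.98 and 7.86 in wild-type arrays (difference 0.62 ± 0.10, adjusted p = 0.117). Cdkn1a, which encodes p21Cip1, read 8.26 and 8.23 in knockout arrays and 7.82 and 7.99 in wild-type arrays (0.34 ± 0.11, adjusted p = 0.202). With the probe sets of a gene averaged, the Cdkn1b difference was 0.31. All 3 members of this inhibitor family were thus higher in both knockout arrays, as were 26.3% of all tested genes, without passing the test. Ccnd1, which encodes cyclin D1, read 9.35 and 8.94 in knockout arrays and 10.03 and 9.83 in wild-type arrays (-0.78 ± 0.18, adjusted p = 0.153), while Ccnd2 lay higher, at 10.58 and 10.90 in knockout arrays and 10.46 and 10.44 in wild-type arrays. Relative to the wild-type mean, 19 genes of proliferation stood at a median of 0.31 in knockout replicate 1 and at -1.68 in replicate 2, the array with the muscle markers; the part of muscle RNA in this was not tested.

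Peg3 and Cdkn1c gave similar values in the array with muscle markers and in the array with skin markers. Relative to the wild-type mean, Peg3 stood at 1.16 in knockout replicate 1 and 1.09 in replicate 2, and Cdkn1c at 0.79 and 0.86. Markers of other gland cells also differed in both knockout arrays. Of 13 tested luminal epithelial markers 9 were higher in both, against 26.3% of all tested genes, with medians of 0.78 in knockout replicate 1 and 0.54 in replicate 2. The wild-type arrays differed about as much in these markers, with a median of -0.83 for replicate 2 minus replicate 1. Their summed unlogged level was 2893 and 2511 in the knockout arrays and 2163 and 1156 in the wild-type arrays. Of 8 tested brown and beige adipocyte markers 6 were lower in both, against 32.5%, with medians of -0.77 and -0.89. Also lower in both were 7 of 11 macrophage, 8 of 14 fibroblast and preadipocyte and 6 of 11 blood endothelium markers. In these 3 lists 0, 1 and 1 markers were higher in both. Of 10 basal epithelial markers 6 were higher in both and 1 was lower. The part of these cell types in the Peg3 and Cdkn1c values was not tested. Their limma results depended on which array was present. Peg3 and Cdkn1c passed an adjusted p of 0.05 only in the fits without a knockout array, and not without a wild-type array. Each such fit has a lone array in 1 genotype, so its spread comes from the pair of the other genotype alone. The fits in which they passed thus hold no spread between knockout arrays.

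Ndn, which encodes necdin, a MAGE family protein that binds E2F1 and restrains cell growth and fat cell formation in mice, lay on the other side. It read 10.64 and 9.90 in Mt1-mmp(-/-) glands, against 10.98 and 10.98 in Mt1-mmp(+/+) glands. Both knockout values were below the nearly identical wild-type pair, but they lay 0.75 apart from each other. The difference was -0.71 ± 0.28 (SE, n = 2 per group) with limma adjusted p = 0.260. It was -0.33 without knockout replicate 2, the array with muscle markers, and -1.08 without knockout replicate 1. Each of these fits leaves 1 knockout array, so its spread comes from the wild-type pair alone. E2f1 itself overlapped between genotypes (5.56 and 5.26 in knockout arrays, 5.64 and 5.44 in wild-type arrays).

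Grb10 encodes an adaptor protein that binds the insulin and IGF1 receptors and dampens their signal. It was level across all arrays, at 10.31 and 10.37 in Mt1-mmp(-/-) glands and 10.35 and 10.31 in Mt1-mmp(+/+) glands, a difference of 0.01 ± 0.09 (SE, n = 2 per group; limma adjusted p = 0.945). The sign of this difference turned to -0.01 after median centring. A dimmer Grb10 probe set gave 6.44 and 6.25 in knockout arrays and 6.22 and 6.19 in wild-type arrays. The receptors bound by Grb10 lay higher in both knockout arrays. Insr, the insulin receptor gene, read 9.47 and 9.65 in knockout arrays and 8.19 and 8.35 in wild-type arrays, a difference of 1.28 ± 0.12 (adjusted p = 0.101). Igf1r, the IGF1 receptor gene, read 8.41 and 9.02 in knockout arrays and 7.71 and 7.58 in wild-type arrays (1.07 ± 0.24, adjusted p = 0.149). With the probe sets of a gene averaged, these differences were smaller, at 0.46 for Insr and 0.68 for Igf1r. The non-imprinted relative Grb14, whose protein also inhibits the insulin receptor, lay far lower, at 6.74 and 5.38 in knockout arrays and 8.81 and 8.98 in wild-type arrays (-2.84 ± 0.49, adjusted p = 0.123). Another relative, Grb7, read 5.53 and 5.45 in knockout arrays and 5.34 and 5.03 in wild-type arrays. None of these passed the test over all genes.

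Dlk1 and Sgce encode membrane proteins. Dlk1, an EGF-repeat protein that keeps preadipocytes from maturing, read 8.41 and 9.24 in Mt1-mmp(-/-) glands, against 9.35 and 9.04 in Mt1-mmp(+/+) glands. Knockout replicate 1 was lowest and replicate 2 lay within the wild-type pair, so the groups overlapped, with a difference of -0.37 ± 0.33 (SE, n = 2 per group; limma adjusted p = 0.543). The 14 tested markers of fibroblasts and preadipocytes had medians of -0.19 and -0.22 in knockout replicates 1 and 2. Notch1, a receptor whose signal Dlk1 can restrain, read 9.57 and 9.53 in knockout arrays and 8.88 and 8.85 in wild-type arrays (0.68 ± 0.09, adjusted p = 0.105). Sgce, which encodes epsilon-sarcoglycan of the dystrophin-associated complex, read 9.01 and 8.51 in knockout arrays and 9.01 and 9.03 in wild-type arrays. Replicate 1 was level with the wild type and replicate 2 stood apart, and the difference of -0.26 ± 0.20 (adjusted p = 0.483) was -0.01 without it and -0.11 with the Sgce probe sets averaged. Of the partners in that complex, Sgcb (-0.12), Dag1 (-0.10) and Dmd (-0.06) differed little, while the muscle sarcoglycan gene Sgca was high in knockout replicate 2 alone (5.25 and 6.89 in knockout arrays, 5.40 and 5.32 in wild-type arrays).

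Meg3, a maternally expressed long non-coding RNA, had 10 probe sets, of which 8 were at or above the brightness limit. The brightest read 11.23 and 12.01 in Mt1-mmp(-/-) glands, against 11.24 and 11.30 in Mt1-mmp(+/+) glands. Knockout replicate 2 was high and replicate 1 was level with the wild type. The difference was 0.35 ± 0.29 (SE, n = 2 per group; limma adjusted p = 0.524), and -0.04 without knockout replicate 2. A probe set designed from the same database sequence gave 10.31 and 11.27 in knockout arrays and 10.33 and 10.36 in wild-type arrays. The other probe sets of similar brightness showed a smaller step, with 11.30 and 11.52 in knockout arrays and 11.32 and 11.23 in wild-type arrays for the first, and 10.11 and 10.20 in knockout arrays and 10.18 and 10.11 in wild-type arrays for the second. Knockout replicate 2 was the highest array in 6 of the 8 Meg3 probe sets at or above the limit. With all Meg3 probe sets averaged the difference was 0.10. Which parts of the transcript these sets probe is not given in the sources used here. The muscle markers were high in the same array, and their part in the Meg3 value was not tested.

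**Figure D2:**
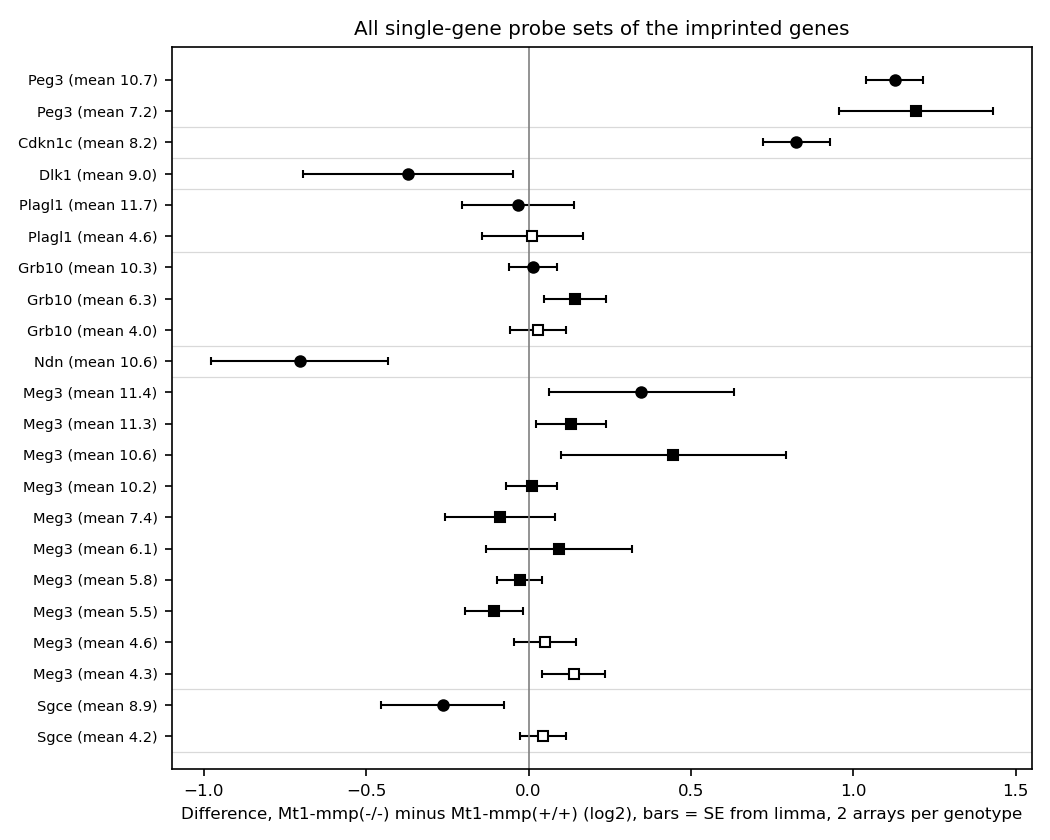
Difference between Mt1-mmp(-/-) and Mt1-mmp(+/+) glands (log2, horizontal axis) for all 22 single-gene probe sets of 8 imprinted genes, with the limma SE from the fit over all single-gene probe sets; circles are the brightest set of a gene, squares the others, and open symbols lie under the brightness limit of 4.94. Both Peg3 probe sets lie near 1.1 to 1.2, whereas those of Meg3 range from -0.11 to 0.45.

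Over the 14 probe sets that were not the brightest of their gene, 9 were at or above the limit. Of these, 2 were higher in both knockout arrays (Peg3 and Grb10), 2 were lower in both (both Meg3) and 5 overlapped (all Meg3). The 5 probe sets under the limit, of Plagl1, Grb10, Sgce and Meg3, differed by between 0.01 and 0.14.

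Imprinted genes lie in clusters in which a shared control region sets the parental copy that is used, so the neighbours of each gene were set beside it. These neighbours were grouped by textbook knowledge after the values were seen. Of 31 listed neighbours, 18 were tested, and 3 were higher in both knockout arrays, 9 lower in both and 6 overlapping. Over all tested genes 26.3% were higher in both and 32.5% lower in both. The only tested neighbour of Peg3, Usp29, which shares a promoter region with it, overlapped, at 5.10 and 5.63 in Mt1-mmp(-/-) glands and 5.24 and 5.40 in Mt1-mmp(+/+) glands. Zim1 and Zim2 lay under the brightness limit and were not tested. Zim1 read 4.46 and 4.58 in knockout arrays and 4.21 and 4.11 in wild-type arrays, higher in both knockout arrays by a mean of 0.36, and Zim2 overlapped. In the Kcnq1 domain around Cdkn1c, 4 of 6 tested neighbours were lower in both knockout arrays (32.5% of all tested genes were) and 1 was higher (26.3% were); of the 4, Nap1l4 overlapped after cyclic loess and after quantile normalisation. Among them, Kcnq1, a potassium channel gene, read 5.25 and 5.10 in knockout arrays and 5.50 and 5.57 in wild-type arrays (-0.36 ± 0.11, SE, n = 2 per group; adjusted p = 0.190). Cd81, a tetraspanin gene, read 11.61 and 11.45 in knockout arrays and 11.78 and 11.77 in wild-type arrays.

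Near Ndn, the MAGE family gene Magel2 lay lower in both knockout arrays as Ndn did, at 5.32 and 5.25 in Mt1-mmp(-/-) glands and 5.73 and 5.93 in Mt1-mmp(+/+) glands (-0.54 ± 0.12, SE, n = 2 per group; limma adjusted p = 0.146). Atp10a, a more distant gene of the same region that encodes a membrane ATPase, was also lower in both knockout arrays, at 6.79 and 7.03 in knockout arrays and 7.25 and 7.46 in wild-type arrays (-0.45 ± 0.14, adjusted p = 0.208). Snrpn and Ube3a overlapped between genotypes. In the Dlk1-Meg3 domain, knockout replicate 1 was the lowest array for Dlk1 and for the non-coding genes Rian and Mirg. Rian read 7.66 and 8.61 in knockout arrays and 8.94 and 8.93 in wild-type arrays, and Mirg 5.43 and 6.01 in knockout arrays and 5.70 and 5.88 in wild-type arrays. That array held the skin markers, whose part in this was not tested. Beside Sgce, the paraoxonase genes Pon2 (-0.92 ± 0.30) and Pon3 (-0.32 ± 0.09) were lower in both knockout arrays and Ppp1r9a, which encodes neurabin, was higher (0.48 ± 0.11), with adjusted p of 0.208, 0.188 and 0.152. Relative to the wild-type mean, Pon2 stood at -0.53 in knockout replicate 1 and -1.32 in replicate 2, the array with muscle markers, and Pon3 at -0.31 and -0.34. The Ppp1r9a difference was 0.23 with its probe sets averaged. Igf2, the fetal growth factor gene next to H19, read 11.72 and 12.16 in knockout arrays and 11.57 and 11.52 in wild-type arrays, a difference of 0.40 ± 0.18 (adjusted p = 0.296), or 0.18 with its probe sets averaged. It was higher in both knockout arrays, by 0.18 over the wild-type mean in replicate 1 and 0.62 in replicate 2, the array with muscle markers. Igf2r, whose product clears the Igf2 protein, had no probe set of its own and was not analysed here.

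**Figure D3:**
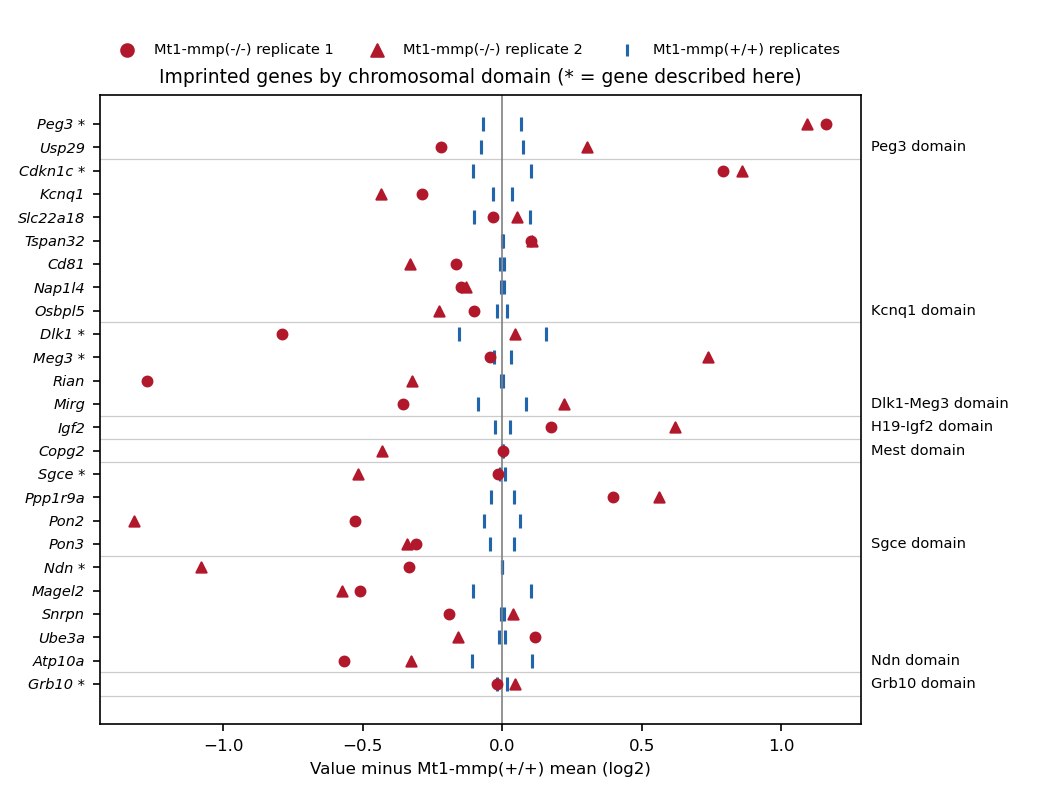
Log2 value minus the Mt1-mmp(+/+) mean for the tested imprinted genes of each chromosomal domain (red circles, Mt1-mmp(-/-) replicate 1; red triangles, replicate 2; blue ticks, the Mt1-mmp(+/+) arrays; asterisks mark the imprinted genes described). Peg3 and Cdkn1c stand near 1.1 and 0.8 while their tested neighbours lie between -0.44 and 0.31, and Ndn and Magel2 both lie below zero.

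Over a wider list of 51 other imprinted genes, 39 were on the array with a single-gene probe set and 28 were tested. The 18 tested neighbours above are all among these 28. Their 3 higher and 9 lower genes are therefore counted again here, and the wider list is not a separate result. None was called by limma in either direction. Higher in both Mt1-mmp(-/-) arrays were 7 of 28 and lower in both were 14 of 28, against 26.3% and 32.5% of all tested genes, and at an unadjusted p under 0.05 there were 1 and 6. The median difference was -0.19 (-0.13 in knockout replicate 1 and -0.26 in replicate 2). The smallest p belonged to Magel2, Mcts2, Ppp1r9a and Pon3. Mcts2, a retrogene, read 7.14 and 6.74 in knockout arrays and 7.73 and 7.65 in wild-type arrays (-0.75 ± 0.17, SE, n = 2 per group; adjusted p = 0.149). The wider list had more genes lower than higher in both knockout arrays, also under the 3 other scalings. Of 26 tested partners of the imprinted genes, 12 were higher in both knockout arrays and 6 lower, with a median of 0.01. Over all tested genes 26.3% were higher in both and 32.5% lower in both. These partners include the receptors, inhibitors, cyclins and Grb relatives above.

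**Figure D4:**
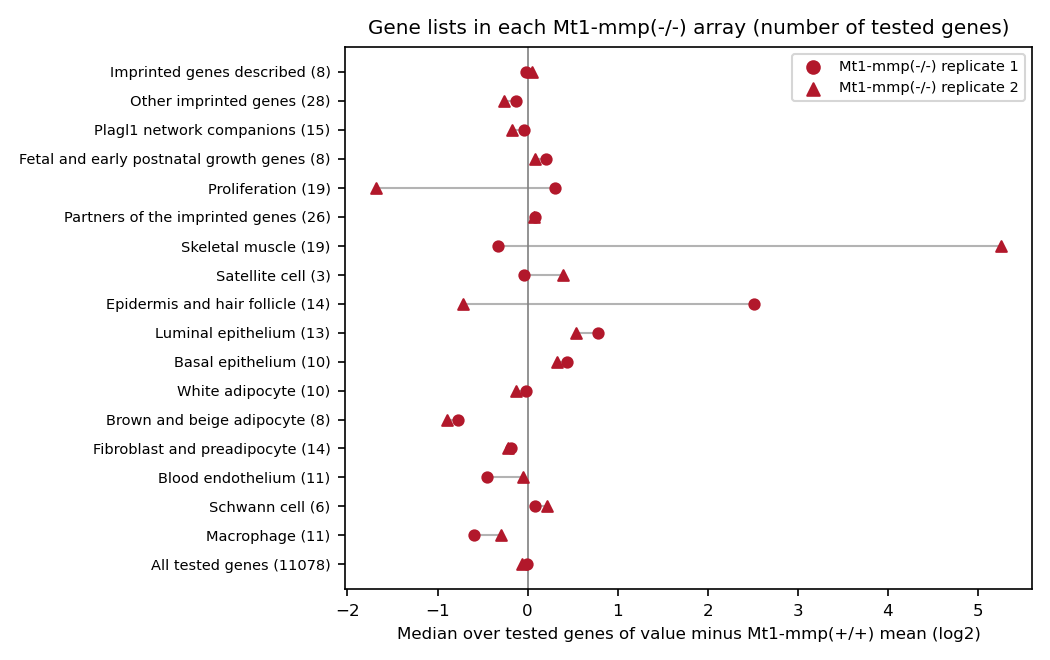
Median over the tested genes of each list of the log2 value minus the Mt1-mmp(+/+) mean, in Mt1-mmp(-/-) replicate 1 (circles) and replicate 2 (triangles). The imprinted genes described lie at -0.02 and 0.05, whereas skeletal muscle markers reach 5.25 in replicate 2 and epidermis and hair follicle markers 2.52 in replicate 1.

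The genes with the most similar profile to Peg3, Cdkn1c and Ndn were sought among all tested genes by Euclidean distance over the 4 arrays, after centring on the wild-type mean. Nearest to Peg3 were Ugt8a (distance 0.128), Klhdc8b (0.135) and Slc6a7 (0.149). Nearest to Cdkn1c were Twist2 (0.0335), Ccdc68 (0.0871) and Ift81 (0.0884). Twist2, a transcription factor gene of mesenchymal cells, read 8.53 and 8.58 in Mt1-mmp(-/-) glands and 7.80 and 7.63 in Mt1-mmp(+/+) glands. Nearest to Ndn were Bnip2 (0.0366), Gng2 (0.0411) and Cdc42 (0.0467). Being picked for likeness to Ndn, each was by that choice lower in both knockout arrays and lowest in replicate 2. With its probe sets averaged, the difference was 0.49 in place of 1.06 for Ugt8a and -0.16 in place of -0.69 for Bnip2. With 4 arrays such likeness describes these arrays only.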

How the data were processed

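Total RNA of 4 glands was amplified from its 3-prime end, labelled with biotin and hybridised to 4 Affymetrix arrays, per the labels' protocols. Per the submitters' processing notes the authors used affy and RMA, with no versions given. The deposited values are log2 expression values, a scale read from the values. RMA equalises the arrays and so removes shifts shared by most genes, and it compresses differences of dim probe sets. The small number of arrays limits the precision.

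Gene names came from the array annotation: of 45141 probe sets, 28898 had 1 gene, 551 several and 15692 none, and 28689 matched a RefSeq gene (GRCm38.p6). For each of 17097 genes the brightest single-gene probe set was used, and the 11078 genes averaging 4.94 or more (the median of all probe sets) were tested with limma 3.58.1 in R 4.3.3 (lmFit, eBayes, no covariate, Benjamini-Hochberg at 0.05). A second limma fit covered all 28898 single-gene probe sets. The labels call the samples biological replicates. The members and lists were chosen with earlier results of these data known. All members were named with every probe set, and of each list of other genes up to 4 with the smallest p and the direct partners of a member; other genes, such as neighbours in a domain, were named after their values were seen.

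Alternatives were other brightness filters, averaging the probe sets of a gene, fewer probe sets, 3 scalings, other limma priors, array weights, a block for the replicate number and each array left out. On simulated data of 11078 genes for this comparison, limma called 87.5% of genes lower by 3 on the log2 scale and 80% of those lower by 2. It called 40% of those lower by 1, 52.5% of those higher by 1 and 80% of those higher by 2, with 9 false calls. In the measured data limma called no gene, and Mmp14, with a difference of -3.07, had an adjusted p of 0.0738. The simulated rates are therefore not the sensitivity of the measured comparison.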

Additional observations from a re-analysis of the deposited data

How the results depend on the processing

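No imprinted gene was called under any of the 11 alternatives that kept all 4 arrays, nor without either wild-type array. Leaving out arrays in turn, with a lone array assumed to vary like the other genotype's pair, gave between 0 and 3 imprinted genes called higher and between 0 and 2 called lower, beside 0 to 1455 and 0 to 2725 of all tested genes; calls appeared only without a knockout array. The 3 called higher without knockout replicate 1 were Peg3, Cdkn1c and Meg3, and the 2 called lower were Ndn and Sgce; without knockout replicate 2 Peg3 and Cdkn1c were called. Genes higher in both knockout arrays, or in the one left, numbered 2 to 4 and those lower 2 to 5. The number lower in both was 1 with a gene's probe sets averaged, 1 without probe sets that can match several transcripts and 1 after cyclic loess, in place of 2; averaging also raised the number higher in both to 3, in place of 2. The median difference ranged from -0.016 to 0.046 with an array left out, and was 0.48 without probe sets that can match several transcripts (which left 4 genes, Peg3, Cdkn1c, Ndn and Meg3), 0.081 after cyclic loess and 0.074 after quantile normalisation. Peg3 and Cdkn1c stayed higher and Ndn lower in the mean under every alternative run. With the replicate number as a block, adjusted p was 0.227 for Peg3 and 0.253 for Cdkn1c and 0 genes were called; deviations of same-numbered arrays correlated at -0.09, so the numbers were not taken as pairs. Signal over background limits genes near the brightness limit of 4.94, such as Grb7, Usp29, Kcnq1, E2f1 and Magel2.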

Other observations

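A set of growth genes known from fetal and early postnatal organs, apart from the imprinted ones, was also read. Of 14 listed, 8 were tested, and 2 were higher in both Mt1-mmp(-/-) arrays (Sox4 and Tead2, both transcription factor genes) and 1 lower (E2f3, a cell cycle regulator gene), against 26.3% and 32.5% of all tested genes. None passed the limma test, and at an unadjusted p under 0.05 there were 0 in either direction. Sox4 read 10.97 and 10.96 in Mt1-mmp(-/-) glands and 10.78 and 10.63 in Mt1-mmp(+/+) glands, a difference of 0.25 ± 0.10 (SE, n = 2 per group; limma adjusted p = 0.263). The RNA-binding protein gene Igf2bp3 read 6.88 and 6.51 in Mt1-mmp(-/-) glands and 6.36 and 6.58 in Mt1-mmp(+/+) glands and overlapped, as did Hmga2 and Mycn.

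Of 15 tested companions of Plagl1 in its network, many of them matrix genes, 3 were higher in both Mt1-mmp(-/-) arrays and 6 lower, against 26.3% and 32.5% of all tested genes, with 0 passing the limma test and a median of -0.07, which turned to 0.01 after cyclic loess and 0.02 after quantile normalisation. The 3 higher were Timp3 and the receptor genes Insr and Igf1r, which are also counted among the partners above. Insr had the smallest p of this list (difference 1.28, limma adjusted p = 0.101). The decorin gene Dcn overlapped (12.46 and 12.48 in Mt1-mmp(-/-) glands, 12.49 and 12.26 in Mt1-mmp(+/+) glands). The growth factor gene Igf1 read 11.17 and 10.29 in Mt1-mmp(-/-) glands and 11.54 and 11.45 in Mt1-mmp(+/+) glands (-0.77 ± 0.32, SE, n = 2 per group; limma adjusted p = 0.279). Adcyap1r1, a receptor gene, was lower in both (-0.52 ± 0.10, adjusted p = 0.131), and the difference was -0.12 with its probe sets averaged.

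The probe set annotated to both Copg2 and Mest belongs to no comparison above, and its signal cannot be assigned to either gene. It read 10.11 and 8.48 in Mt1-mmp(-/-) glands and 11.49 and 11.49 in Mt1-mmp(+/+) glands. Relative to the wild-type mean this is -1.38 in replicate 1 and -3.02 in replicate 2. The mean difference of -2.20 was larger in size than that of Peg3 and opposite in sign. The probe set listed for Copg2 alone read 7.96 and 7.52 in Mt1-mmp(-/-) glands and 7.95 and 7.95 in Mt1-mmp(+/+) glands.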
